A study of Rattus norvegicus with 9 samples.

Results

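The transcripts followed here are those of 10 genes of cholesterol synthesis and its control: Srebf2, Insig1, Mvd, Fdps, Idi1, Cyp51, Msmo1, Nsdhl, Ebp and Dhcr7. They were measured in dorsal root ganglia, the clusters of sensory neuron cell bodies and their glia beside the spinal cord, taken from lumbar levels L4 to L6 of Sprague-Dawley rats. Members were chosen by gene symbol, as all probe sets annotated to 1 of these symbols and to no other gene. That gave 13 probe sets, with a pair each for Srebf2, Idi1 and Cyp51, out of 10411 genes named on the array. The 3 groups were rats with no streptozotocin (STZ) that received vehicle, STZ-injected rats that received vehicle, and STZ-injected rats that received FK1706, an immunophilin ligand. STZ is a beta cell toxin that makes rats diabetic by removing their source of insulin. Collection followed 1, 2 or 3 weeks of treatment, on the next day. RNA on each of the 9 arrays was pooled from 5 rats, so each group had 1 array per week. Doses and the rats' age and sex are not given in the sources used here.

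Cholesterol is built from acetyl-CoA by way of mevalonate and farnesyl diphosphate, and sterol rings are then trimmed in the endoplasmic reticulum. SREBP2, the product of Srebf2, is a membrane-bound transcription factor that is released when sterols are scarce and switches on the genes of this route. In peripheral nerve, Schwann cells make much of the cholesterol of myelin themselves, and neurons also take it up from lipoproteins. In a ganglion pool, fewer cells of a type and less RNA per cell cannot be told apart.

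SREBP2 works on promoters through a sterol regulatory element together with the factors NF-Y and Sp1, so the promoters of all 10 genes were searched for such motifs. RefSeq sequences of the GRCr8 build were used, from 250 bases before to 50 bases after the start, on both strands, and all 10 genes were matched by symbol. The element TCACNCCAC was in 0 of 10, against 1.12% of 33469 rat promoters, and the shorter CACNCCAC, which lies within it, was in Insig1 and Ebp, 2 of 10 against 5.8%. CCAAT, the letters of the NF-Y site, was in 8 of 10 (not Cyp51 or Dhcr7) against 37.5%, and GGGCGG, the letters of the Sp1 site, was in 8 of 10 (not Idi1 or Nsdhl) against 33.1%. The 33469 promoters were not matched to the members in base composition or expression, so these shares cannot show a trait of SREBP2 targets. A match is a description of the letters, not of a bound site, and the absence of one says nothing of the factor. Upstream sequences of 250 bases are shown for Insig1 and for the enzymes whose diabetic and normal vehicle arrays did not overlap, 2 on the higher side and 2 on the lower. Capitals mark matches to CACNCCAC, CCAAT and GGGCGG or their reverse complements. Insig1 lies at chr4:8057770-8058019 and Fdps at chr2:176804817-176805066, both on the minus strand, and Cyp51 lies at chr4:30991443-30991692 and Msmo1 at chr16:29746863-29747112, both on the plus strand.
Insig1: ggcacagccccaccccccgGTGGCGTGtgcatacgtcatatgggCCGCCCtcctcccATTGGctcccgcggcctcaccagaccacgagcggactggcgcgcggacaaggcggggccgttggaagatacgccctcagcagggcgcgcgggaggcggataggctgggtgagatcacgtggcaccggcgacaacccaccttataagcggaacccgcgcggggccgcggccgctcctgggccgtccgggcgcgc
Fdps: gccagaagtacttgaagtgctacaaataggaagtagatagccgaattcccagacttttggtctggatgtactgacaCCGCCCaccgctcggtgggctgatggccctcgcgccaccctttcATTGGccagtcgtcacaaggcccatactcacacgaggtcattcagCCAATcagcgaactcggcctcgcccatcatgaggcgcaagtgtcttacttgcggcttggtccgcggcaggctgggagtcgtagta
Cyp51: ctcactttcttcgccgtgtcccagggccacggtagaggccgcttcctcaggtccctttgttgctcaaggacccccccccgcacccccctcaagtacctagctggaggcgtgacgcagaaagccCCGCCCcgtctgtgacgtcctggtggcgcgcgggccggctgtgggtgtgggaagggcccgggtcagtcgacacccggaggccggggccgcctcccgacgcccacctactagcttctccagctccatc
Msmo1: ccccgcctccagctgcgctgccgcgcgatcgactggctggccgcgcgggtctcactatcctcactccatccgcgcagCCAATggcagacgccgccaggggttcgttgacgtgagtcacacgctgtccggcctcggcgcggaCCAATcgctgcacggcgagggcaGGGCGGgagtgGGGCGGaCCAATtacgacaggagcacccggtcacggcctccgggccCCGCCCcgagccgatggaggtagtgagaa
Insig1, of the 4 shown, holds CACNCCAC, Msmo1 holds 3 copies of CCAAT and Cyp51 holds none.

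The deposited signal differed in level between arrays, with trimmed means of 361 to 534 that were lower in later weeks, so arrays were put on one scale by quantile normalization. All levels below are log2 signals on that scale, and all differences are log2 differences between them. Before that step the median difference over the tested probe sets was -0.10 for STZ vehicle against normal, -0.07 for FK1706 against STZ vehicle and -0.17 for FK1706 against normal. Array pairs correlated with r from 0.969 to 0.981 across probe sets. Precision is limited by the number of arrays. Group means carry the SD over 3 pools, 1 from each week, so that SD includes differences between weeks. The p-values rest on the spread between arrays left after group and week, not on the spread between rats. With 1 pool per group and week, that spread mixes differences between pools with group differences that change by week. Of 11 annotated sensory neuron markers, 10 lay above the filter. Summed over all 11, their signal was 66514 to 69037 over normal, 65948 to 67403 over STZ vehicle and 65972 to 68356 over FK1706 arrays. The filter alone does not identify the tissue, since markers of other cells lay above it too. These were 11 of 12 for myelinating Schwann cells, 8 of 8 for fibroblasts and 9 of 11 for skeletal muscle. Summed muscle markers ran from 5392 to 9168, from 4462 to 6967 and from 4720 to 6468 in the same order of groups.

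Of the 13 member probe sets, 12 passed the filter on low signal and were tested. The other, Srebf2 probe set 1377489_at, lay between 4.93 and 5.33 on all arrays, under the filter at 7.36. The 12 tested sets had a median SD over the 9 arrays of 0.129, against 0.154 for all 9520 tested probe sets. Their SDs ran from 0.051 to 0.447. By mean signal they lay from the 58.5th percentile (Mvd) to the 97.8th (Fdps), so the 2 medians are not matched for signal level.

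The first comparison asks how the route stood in diabetic ganglia, with STZ vehicle set against normal vehicle. The control genes Srebf2 and Insig1 and the early enzymes Mvd and Fdps were higher in the STZ array than in the normal array of the same week in all 3 weeks, by 1.11-fold to 1.3-fold on average. Cyp51 probe set 1367979_s_at and Msmo1, of the later sterol steps, were lower in all 3 weeks, by 1.2-fold and 1.04-fold. These 6 of 12 probe sets kept 1 sign in all 3 weeks, against 30.7% of all tested. The order of the route did not divide the rest: Idi1, which acts between Mvd and Fdps, was lower in mean in both probe sets, and Dhcr7, of the last step, was higher in mean, with the opposite sign on the deposited scale. None of these differences passed the test: 0 of 12 probe sets had an adjusted p under 0.05 by limma, against 0.063% of all tested. At an unadjusted p under 0.05 there were 4 of 12, against 8.71% of all tested, with 3 higher (4.18%) and 1 lower (4.53%).

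Srebf2 encodes SREBP2 itself. Its probe set 1371979_at stood at 10.13, 10.07 and 10.16 in normal rats (weeks 1, 2 and 3 in that order, as for all lists of 3 values below), at 10.24, 10.18 and 10.39 in STZ vehicle and at 10.24, 10.40 and 10.23 in FK1706. All 6 arrays from STZ rats lay above the 3 normal arrays, and the 2 STZ groups overlapped. The mean was 10.27 ± 0.110 (SD, n = 3) in STZ vehicle against 10.12 ± 0.0467 in normal, a difference of 0.15 with an SE of 0.0870 (limma, adjusted p = 0.639). It was 0.04 on the deposited scale and from 0.08 to 0.21 with 1 array or week left out.

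Insig1 encodes a membrane protein that holds the SREBP complex in the endoplasmic reticulum when sterols are plentiful, and is itself a target of SREBP2. It stood at 10.25, 10.07 and 10.20 in normal rats, at 10.34, 10.39 and 10.35 in STZ vehicle and at 10.17, 10.09 and 10.28 in FK1706. The 3 STZ vehicle arrays lay above the other 6 arrays, with an SD of 0.0239 among them. The difference from normal was 0.19 with an SE of 0.0807 (limma, unadjusted p = 0.0393, adjusted p = 0.549). On the deposited scale it was 0.08, and with 1 array or week left out it was 0.12 to 0.24.

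Mvd, the decarboxylase that closes the mevalonate steps, gave the largest difference of the 12. Its level was 8.27, 7.89 and 7.96 in normal rats, 8.60, 8.38 and 8.26 in STZ vehicle rats and 8.43, 8.27 and 8.33 in FK1706. The week 1 normal array lay just above the week 3 STZ vehicle array, so the groups overlapped, while within each week the STZ array was higher, by 0.33, 0.49 and 0.30. The mean difference was 0.37 with a 95% interval of 0.13 to 0.62 (limma, unadjusted p = 0.00695, adjusted p = 0.424).

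Fdps makes farnesyl diphosphate, where the sterol route parts from the isoprenoid routes. It stood at 11.81, 11.62 and 11.72 in normal rats, at 12.08, 11.85 and 11.88 in STZ vehicle and at 11.72, 11.91 and 11.75 in FK1706. STZ vehicle and normal arrays did not overlap, and the FK1706 arrays lay across both. The difference between STZ vehicle and normal was 0.22 with an SE of 0.0818 (limma, unadjusted p = 0.0197, adjusted p = 0.478), and 0.12 on the deposited scale.

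Idi1, the isomerase between Mvd and Fdps in the route, was lower in weeks 2 and 3. Probe set 1368878_at was 9.99, 10 and 9.96 in normal rats, 10.04, 9.83 and 9.77 in STZ vehicle rats and 9.95, 9.76 and 9.72 in FK1706. Probe set 1388872_at was 8.84, 9.23 and 8.55 in normal rats, 8.96, 9.04 and 7.84 in STZ vehicle rats and 9.14, 8.46 and 8.38 in FK1706. In both, the week 1 STZ array lay slightly above its normal counterpart and the later STZ arrays below it, with mean differences of -0.10 and -0.26 (limma, adjusted p = 0.747 and 0.722). With 1 array or week left out they ran from -0.17 to -0.06 and from -0.48 to -0.03, and the first was -0.21 on the deposited scale.

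**Figure D1:**
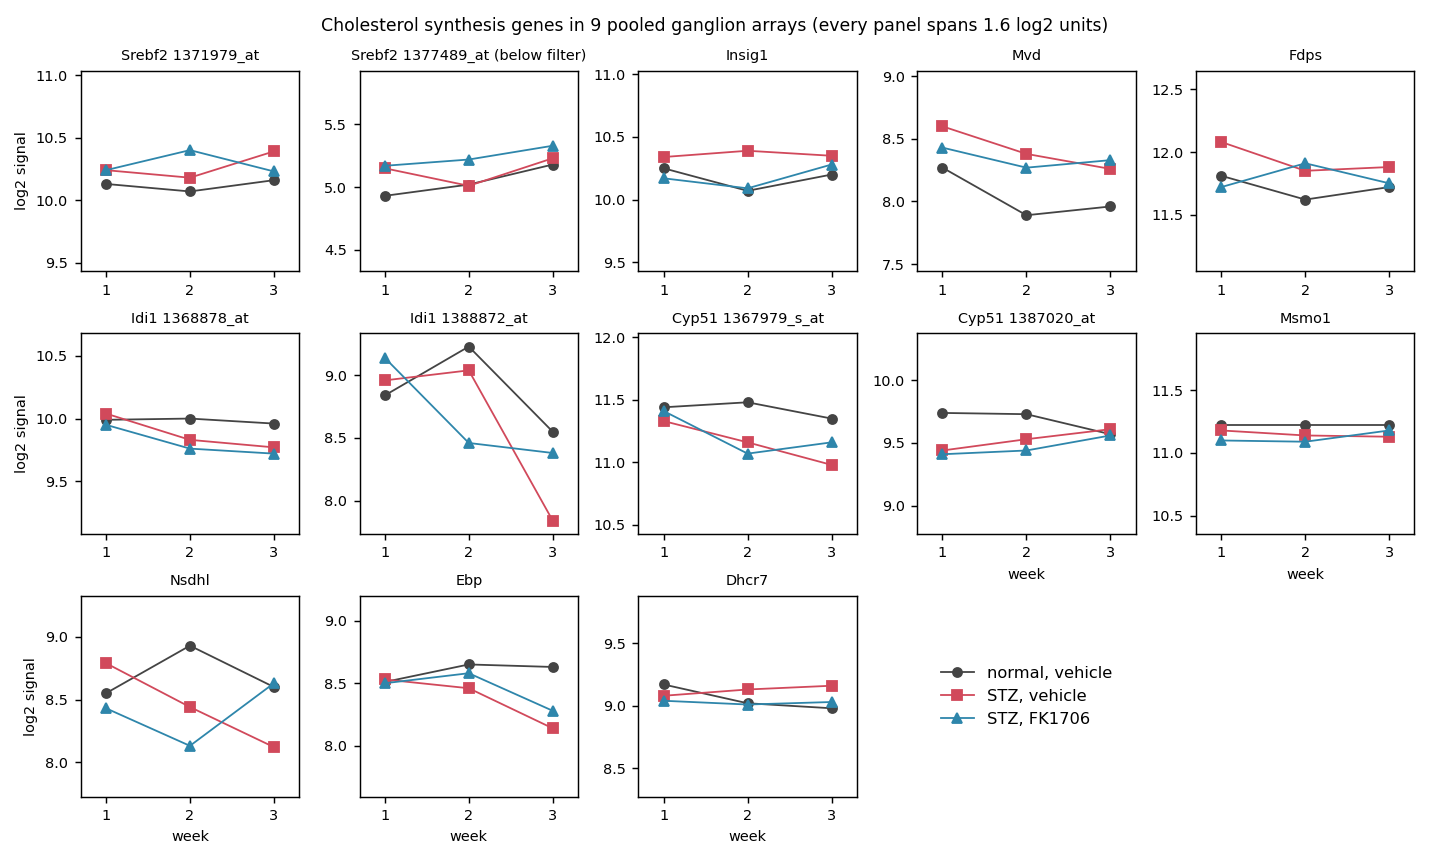
Log2 signal of the 13 member probe sets by week (1 panel per probe set, the untested Srebf2 set included; x axis, week of dosing; y axis, normalized log2 signal; 1 point per pool of 5 rats). The 3 STZ vehicle points of Insig1 lie above the other 6 points, and those of Cyp51 1367979_s_at lie below the normal points in each week.

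Cyp51, lanosterol demethylase, opens the trimming of the sterol ring. Probe set 1367979_s_at stood at 11.44, 11.48 and 11.35 in normal rats, at 11.33, 11.16 and 10.98 in STZ vehicle and at 11.41, 11.07 and 11.16 in FK1706. All STZ vehicle arrays lay below all normal arrays, with a difference of -0.27 and an SE of 0.0823 (limma, unadjusted p = 0.00808, adjusted p = 0.437). The second probe set, 1387020_at, read 9.74, 9.73 and 9.57 in normal rats, 9.44, 9.53 and 9.61 in STZ vehicle rats and 9.41, 9.44 and 9.56 in FK1706. Its STZ vehicle arrays were lower in weeks 1 and 2 only, with a mean difference of -0.16 (limma, adjusted p = 0.647), which was -0.27 on the deposited scale and ran from -0.26 to -0.08 with 1 array or week left out.

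Msmo1 and Nsdhl act together to remove methyl groups from the ring. Msmo1 was 11.22 in each normal array, 11.18, 11.14 and 11.13 in STZ vehicle rats and 11.10, 11.09 and 11.18 in FK1706, so all STZ arrays lay below the normal ones by small amounts. Nsdhl was 8.55, 8.93 and 8.60 in normal rats, 8.79, 8.44 and 8.12 in STZ vehicle rats and 8.43, 8.13 and 8.63 in FK1706. Its STZ vehicle array was the highest of week 1, and in week 3 the lowest. Mean differences between STZ vehicle and normal were -0.06 for Msmo1 and -0.24 for Nsdhl (limma, adjusted p = 0.801 and 0.722). Leaving out 1 array or week moved the Nsdhl value between -0.48 and -0.04, and Msmo1 stood at -0.16 on the deposited scale.

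Ebp, an isomerase that shifts a double bond of the ring, was 8.51, 8.65 and 8.63 in normal rats, 8.53, 8.46 and 8.14 in STZ vehicle rats and 8.50, 8.58 and 8.28 in FK1706. Both STZ arrays of week 3 lay below all other arrays, and the week 1 arrays of the 3 groups lay within a few hundredths of each other. Dhcr7, the reductase of the last step, was 9.17, 9.02 and 8.98 in normal rats, 9.08, 9.13 and 9.16 in STZ vehicle rats and 9.04, 9.01 and 9.03 in FK1706. The STZ vehicle difference was -0.22 for Ebp (limma, adjusted p = 0.613), and for Dhcr7 it was 0.07 (adjusted p = 0.858), or -0.04 on the deposited scale. Ebp ran from -0.33 to -0.09 and Dhcr7 from 0.01 to 0.15 when 1 array or week was left out.

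Counted over the 12 probe sets, STZ vehicle and normal arrays did not overlap in 5, against 12.8% of all tested, with Srebf2, Insig1 and Fdps higher (3 of 12, against 6.17%) and Cyp51 1367979_s_at and Msmo1 lower (2 of 12, against 6.63%). The 6 with the same sign in all 3 weeks were 4 higher (15.4% of all tested) and 2 lower (15.3%). The median absolute difference was 0.20, against 0.10 over all tested, and the median signed difference was -0.08 against 0. In 9 of the 12, the 95% interval of the difference lay within 1.5-fold either way, so larger differences were outside the interval there. Summed myelinating Schwann cell markers ran from 37057 to 39051 in normal, from 32735 to 38039 in STZ vehicle and from 33932 to 36202 in FK1706 arrays. Their tested probe sets had a median STZ vehicle difference of -0.16, and 0 passed (limma). Summed fibroblast markers ran from 25326 to 34312, from 20545 to 25509 and from 22748 to 27247 over the groups in the same order. Of the fibroblast probe sets, 3 passed for STZ vehicle against normal (limma), against 0.063% of all tested. Over all fibroblast probe sets tested, the median difference was -0.48. The list includes collagen genes, with a pair of probe sets each for Col1a1 and Col1a2. Over the 9 arrays Col3a1 ran from 11.93 to 13.01. Mfap4, which is not a collagen, ran from 7.35 to 8.45. Ranges were narrower for Dcn (12.87 to 13.07), Pdgfra (9.24 to 9.67), Fbln1 (7.27 to 7.75) and Lum (10.8 to 11.43). Whether the fibroblast values followed collagen transcripts or the number of fibroblasts was not tested. The part of Schwann cells and fibroblasts in the member differences was not tested either.

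**Figure D2:**
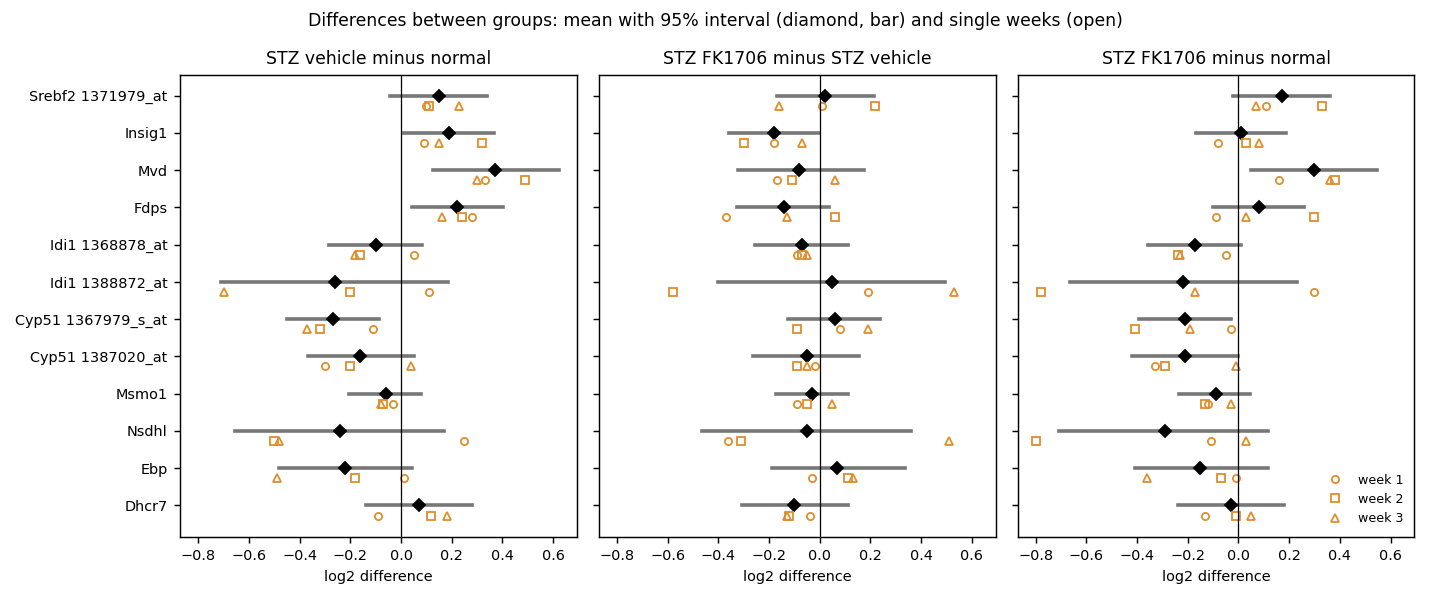
Log2 differences of the 12 tested member probe sets in the 3 group comparisons (x axis, log2 difference; diamonds, limma estimates over 3 weeks; bars, 95% intervals; open symbols, single weeks). Mvd stands farthest to the right for STZ vehicle against normal, at 0.37, and Cyp51 1367979_s_at farthest to the left, at -0.27.

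FK1706 was compared with vehicle in STZ rats to ask whether the drug moved these transcripts. No member passed (0 of 12 by limma, against 0% of all tested), and 1 of 12 had an unadjusted p under 0.05, against 3.38%. That 1 was Insig1, at 10.18 ± 0.0951 (SD, n = 3) with FK1706 against 10.36 ± 0.0239 with vehicle, a difference of -0.18 with an SE of 0.0807 (limma, unadjusted p = 0.0476, adjusted p = 0.999). By week, in order, the differences were -0.18, -0.30 and -0.07. This comparison and that of STZ vehicle with normal share the 3 STZ vehicle arrays, and for Insig1 those 3 were the high ones in both.

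FK1706 arrays lay below all STZ vehicle arrays in 2 of 12 probe sets, Insig1 and Dhcr7, against 6.83% of all tested in either direction and 3.53% lower. Dhcr7 differed by -0.10 with an SE of 0.0948 (limma, adjusted p = 0.999). The sign was the same in all 3 weeks in 4 of 12, against 23.8%, and all 4 were lower with FK1706, against 11.8%: Insig1, Dhcr7, Idi1 1368878_at at -0.07 and Cyp51 1387020_at at -0.05. Differences of the other 8 ran from -0.14 for Fdps to 0.07 for Ebp, and 3 of the positive ones, Srebf2, Cyp51 1367979_s_at and Idi1 1388872_at, turned negative on the deposited scale. The median was -0.05 against 0 for all tested. All 12 of the 95% intervals lay within 1.5-fold, and their widest bound was 0.49.

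Set against normal rats, FK1706-treated STZ rats again gave 0 of 12 passing by limma (0% of all tested), and 3 of 12 at an unadjusted p under 0.05 (8.15%). Mvd was 8.34 ± 0.0827 against 8.04 ± 0.202 (SD, n = 3), a difference of 0.30 (limma, unadjusted p = 0.0227, adjusted p = 0.540). Cyp51 differed by -0.21 in each of its probe sets (limma, unadjusted p = 0.0277 and 0.0484, adjusted p = 0.561 and 0.610). Groups did not overlap in 4 of 12, against 11.9%: Srebf2 was higher (5.91% of all tested), although its mean difference turned to -0.01 on the deposited scale, and Idi1 1368878_at, Cyp51 1387020_at and Msmo1 were lower (5.99%). Insig1 differed by 0.01, or by -0.18 on the deposited scale, and Fdps by 0.08, or by -0.09 there. The sign was the same in all 3 weeks in 7 of 12, against 27.9%.

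Weeks were compared across the 3 groups. Week 2 against week 1 gave 0 of 12 passing by limma (0% of all tested), and 1 at an unadjusted p under 0.05 (5.74%), which was Mvd at -0.25 (limma, adjusted p = 0.855). Week 3 against week 2 gave 0 of 12 (0.0105%), and 1 unadjusted (10.2%), which was Idi1 1388872_at at -0.65 with an SE of 0.203 (limma, adjusted p = 0.345). Its partner probe set 1368878_at stood at -0.05. For any difference between weeks the count was 0 of 12 by limma's F test (0.0525%), and 2 unadjusted (10.7%), Idi1 1388872_at and Cyp51 1367979_s_at (adjusted p = 0.294 and 0.457).

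Whether a group difference grew or shrank with time was tested as a difference in slope per week. For STZ vehicle against normal 0 of 12 passed by limma (0% of all tested) and 0 had an unadjusted p under 0.05 (4.13%). The slopes farthest from 0 were -0.41 for Idi1 1388872_at, -0.36 for Nsdhl and -0.25 for Ebp, all of them members whose STZ vehicle array lay above its normal counterpart in week 1 and below it in weeks 2 and 3. For FK1706 against STZ vehicle 0 of 12 passed (0%) and 0 were under 0.05 unadjusted (3.54%), with Nsdhl at 0.43, an SE of 0.199 and an unadjusted p of 0.0549 (limma, adjusted p = 0.999).

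The rest of the pathway was followed in 4 lists: the other synthesis enzymes (14 probe sets tested), SREBP control and lipoprotein uptake (12), sterol transport and efflux (18) and the isoprenoid branch (8). By limma, 0 probe sets of any list passed in any comparison of groups, weeks or slopes. At an unadjusted p under 0.05, STZ vehicle against normal had 0 of 14, 1 of 12, 0 of 18 and 0 of 8 in that order, against 8.71% of all tested. FK1706 against STZ vehicle had 0 in each, against 3.38%, and FK1706 against normal had 2, 1, 3 and 0, against 8.15%. Median differences for STZ vehicle against normal were -0.01, -0.02, 0.07 and -0.01, against 0 over all tested.

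Among the other synthesis enzymes, Hsd17b7, a ketosteroid reductase of the demethylation complex, had probe sets that disagreed. Probe set 1387233_at differed by -0.42 between FK1706 and normal (limma, adjusted p = 0.474), with FK1706 at 8, 7.70 and 7.64 and normal at 8.26, 8.21 and 8.13, while 1389430_at differed by 0.19. Mvk and Pmvk, the kinases ahead of Mvd in the route, were lower in mean with STZ, where Mvd was higher. Mvk probe set 1368232_at was 8.84 ± 0.168 in normal and 8.69 ± 0.216 in STZ vehicle (its probe set 1387119_at was 8.27 ± 0.246 and 8.04 ± 0.231). Pmvk was 9.53 ± 0.0638 and 9.32 ± 0.261 (SD, n = 3). Sqle, which oxidises squalene, was 10.44 ± 0.0660 in normal, 10.45 ± 0.105 in STZ vehicle and 10.28 ± 0.120 with FK1706. Acat2, the thiolase that starts the route, was 10.06 ± 0.314, 10.02 ± 0.102 and 9.85 ± 0.139 in the same order.

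Srebf1, the sister gene of Srebf2 that serves mainly fatty acid synthesis, gave the one value under 0.05 unadjusted among the control genes for STZ vehicle against normal. Its probe set 1388426_at was 8.96, 9.27 and 9.96 in normal rats, 8.97, 8.91 and 8.82 in STZ vehicle rats and 9.05, 8.85 and 9.18 in FK1706, so 1 array, normal at week 3, stood above the rest. The difference was -0.50 with an SE of 0.178 (limma, adjusted p = 0.476), and the other probe set, 1371104_at, gave -0.13. In 1371104_at the FK1706 arrays, at 8.07, 8.16 and 8.16, lay below all normal and all STZ vehicle arrays. Of all tested, 5.99% and 3.53% were lower without overlap in those comparisons. Its FK1706 difference from normal was -0.27 (limma, unadjusted p = 0.035, adjusted p = 0.59). Insig2, the sister gene of Insig1, was 8, 8.07 and 8.12 in normal and 8.24, 8.21 and 8.33 in STZ vehicle, with no overlap (6.17% of all tested were higher without overlap). With FK1706 it was 8.41, 7.92 and 7.49. Scap, which escorts SREBP2, was 9.31 ± 0.184 in normal and 9.24 ± 0.0731 in STZ vehicle. Mylip, a ligase that marks the LDL receptor for breakdown, was 8.15 ± 0.0298 and 8.01 ± 0.0667 (SD, n = 3).

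Among transport genes, Soat1, which esterifies cholesterol for storage, had 1 low array. Probe set 1369002_at was 5.79 in the FK1706 array of week 3 and from 7.46 to 8.03 in the other 8 arrays, and the other probe set, 1374976_a_at, was 8.09 in that array. Scarb1, a lipoprotein receptor for selective cholesterol uptake, had FK1706 arrays below all STZ vehicle arrays in both probe sets, against 3.53% of all tested. Its FK1706 means were 7.09 for 1367855_at and 7.1 for 1386956_at, under the filter level of 7.36. The differences were -0.61 for 1367855_at and -0.36 for 1386956_at (limma, adjusted p = 0.999 each). The first of these rests largely on the FK1706 array of week 3, at 6.25 against 7.60 and 7.44 in weeks 1 and 2. Lcat, which esterifies cholesterol on lipoproteins, had both STZ groups below normal without overlap, against 6.63% (STZ vehicle) and 5.99% (FK1706) of all tested. Its levels were 8.52 ± 0.110 in normal, 8.29 ± 0.0860 in STZ vehicle and 8.22 ± 0.168 with FK1706. In the isoprenoid branch, Fnta, a subunit of the enzymes that prenylate proteins, was 11.09 ± 0.108, 11.01 ± 0.0960 and 10.96 ± 0.0597 in the same order (SD, n = 3).

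Stard3, a sterol carrier of late endosomes, was 8.51 ± 0.189 in normal, 8.25 ± 0.150 in STZ vehicle and 8.44 ± 0.220 with FK1706 (SD, n = 3), and Pdss2, Rce1 and Rabggtb of the isoprenoid branch overlapped between groups, as Stard3 did. Over weeks, Lipa, the lysosomal lipase that frees stored cholesterol, was 9.82, 9.77 and 9.79 in the week 1 arrays, 10.01, 10 and 9.92 in week 2 and 10.09, 10.25 and 10.08 in week 3, in the order normal, STZ vehicle, FK1706. Each week's arrays lay above those of the week before, and Lipa did not pass (limma F test, adjusted p = 0.255). Lipa was picked for the largest F over weeks of its list, and how many of all tested probe sets had such an order was not counted. Icmt, which methylates prenylated proteins, was from 6.98 to 7.36 in week 1 and from 7.50 to 7.75 later (limma F test, adjusted p = 0.337). Lrp1, Pggt1b, Erlin1, Scap, Mvk and Acat2, also picked for their F over weeks, did not pass either.

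**Figure D3:**
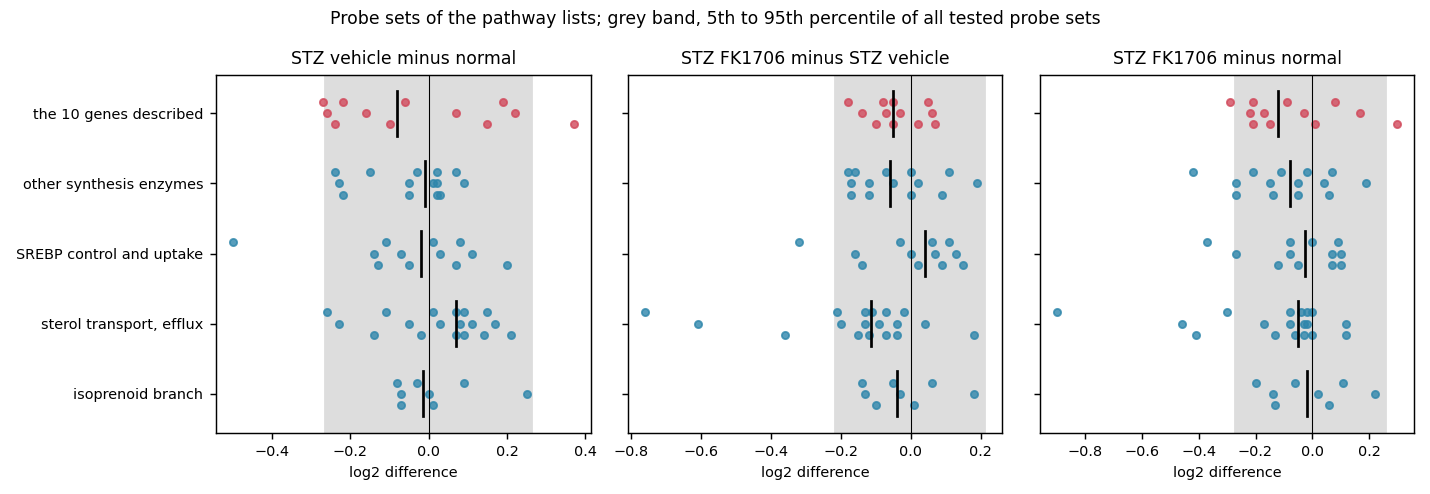
Log2 differences of the members and of the 4 other pathway lists, with 1 point per tested probe set for each group comparison (x axis, log2 difference; black bar, median of the list; grey band, 5th to 95th percentile of all tested probe sets). No point passed the test, and the leftmost points are Soat1 1369002_at at -0.76 for FK1706 against STZ vehicle and at -0.90 against normal.

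Across the 9 arrays, the genes whose profile was most like the members' mean, of 8051 probe sets compared, were Nalcn (r = 0.923), Serpini1 (0.910), Elovl5 (0.905), Cnih4 (0.903) and Glcci1 (0.898). That mean, of centred levels, ran only from -0.073 to 0.13. It averages members that went opposite ways, such as Mvd at 0.37 and Cyp51 1367979_s_at at -0.27 for STZ vehicle against normal. Likeness to it is therefore not likeness to each member. These correlations are a description over 9 arrays that share group and week.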

How the data were processed

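Pooled ganglion RNA was measured on 9 Affymetrix arrays. The deposited values are a linear intensity per probe set, made by the authors with MAS5 per the submitters' processing notes (version not given in the sources used here). Of 15923 probe sets, 57 controls were left out, and 12783 had 1 gene symbol, 312 several and 2771 none.

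Signals were put on the log2 scale after adding 18.4, their 10th percentile, and quantile-normalized. The 9520 probe sets whose mean reached the 40th percentile were tested with limma 3.58.1 in R 4.3.3 (lmFit, eBayes with trend), with group and week as factors and 4 residual degrees of freedom, and Benjamini-Hochberg adjustment over all 9520, passed under 0.05, two-sided. Slopes came from a second model that keeps week as a factor and adds a linear week term for each STZ group, with 2 residual degrees of freedom. Week was the replicate block because the labels give each group 1 array per week. After group means were removed, same-week arrays of different groups correlated with r from -0.00051 to 0.320. Arrays of different groups and different weeks gave r from -0.291 to 0.121, so the 2 ranges overlapped. Simulated data with known group changes and no week effect were used to check STZ vehicle against normal and FK1706 against normal. The week and slope tests were not checked in this way.

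Members, pathway lists and marker lists were chosen with earlier results of these data known. All members are named. From each other list the rule names up to 4 genes with the largest moderated t over group comparisons and up to 2 with the largest F over weeks. Alternatives covered scaling, offset, filter, probe set choice, prior, block and single arrays.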

Additional observations from a re-analysis of the deposited data

How the results depend on the processing

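Over 20 alternatives the number of members that passed stayed at 0 in each comparison of groups, with a lowest member adjusted p (limma) of 0.152 for STZ vehicle against normal, 0.925 for FK1706 against STZ vehicle and 0.0696 for FK1706 against normal, all on the deposited scale. Without the replicate block of week, 0 of 12 passed in each of these comparisons. Slopes also stayed at 0 under 16 of the alternatives; those that leave out a whole week could not be fitted, and the fit without the block was not run for them. On the deposited scale, where the arrays sink from week to week, 5 members passed for week 3 against week 2 and 11 for any difference between weeks. The counts over all tested probe sets were less steady. STZ vehicle against normal gave 6, and from 0 (no filter) to 12 (deposited scale), with 1 without the block and 0 to 8 when 1 array or week was left out. The deposited scale gave 89 for FK1706 against normal, 165 for week 2 against week 1, 2046 for week 3 against week 2 and 5936 for any week, where the counts were 0, 0, 1 and 5. Without the week 1 STZ vehicle array, 33 and 38 probe sets passed for the slopes of STZ vehicle against normal and FK1706 against STZ vehicle. Of 36 member differences between groups, 25 kept their sign throughout. On the deposited scale the sign turned for Dhcr7 (-0.036) in STZ vehicle against normal, for Cyp51 1367979_s_at (-0.016), Srebf2 (-0.054) and Idi1 1388872_at (-0.029) in FK1706 against STZ vehicle, and for Fdps (-0.090), Insig1 (-0.177) and Srebf2 (-0.011) in FK1706 against normal. Leaving out 1 array or 1 week turned the sign of some differences too, the largest of them -0.217 for Idi1 1388872_at in FK1706 against normal. In FK1706 against STZ vehicle, Cyp51 1367979_s_at ran from -0.007 to 0.145, Srebf2 from -0.074 to 0.114, Ebp from -0.009 to 0.154, Idi1 1388872_at from -0.202 to 0.356 and Nsdhl from -0.341 to 0.146. In FK1706 against normal, Fdps ran from -0.031 to 0.181, Insig1 from -0.038 to 0.056, Dhcr7 from -0.077 to 0.036 and Idi1 1388872_at from -0.466 to 0.080. The cause was not tested. With 1 pool per group and week, the spread between pools of the same group and week could not be measured. The differences seen here therefore cannot be set against it.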
